A study of Mus musculus with 2 samples.

Results

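The lysosome is the acid compartment in which cells break down proteins, glycans, lipids and glycogen, and dendritic cells (DC) use it to cut captured antigen into peptides for display on MHC class II. Its soluble hydrolases work only at low pH, which is kept by the vacuolar proton pump (V-ATPase), a rotary machine with a membrane sector, V0, that conducts protons and a cytosolic sector, V1, that hydrolyses ATP. The pump is known to be assembled more fully on lysosomes as DC mature, a step that acts on protein and is not read by RNA. The genes described here are 39 named lysosomal genes of the 18090 listed in either library, found by Entrez Gene number: 19 hydrolases, peptidases and activator proteins, 5 lysosomal membrane proteins, and 15 subunits or accessory proteins of the V-ATPase. All 39 had reads in both libraries and all passed the level used for comparison, at least 1 RPKM (a gene's reads divided by its length in kilobases and by the library's counted reads in units of 1000000) in at least 1 library.

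RNA was sequenced from DC grown from C57BL/6 mouse bone marrow for 6 days in RPMI-1640 holding 10 ng/ml GM-CSF and 1 ng/ml IL-4, a culture that both groups share. The immature group is 1 library of such cells. The mature group is 1 library of cells labelled mature DC, read as the sample given lipopolysaccharide (LPS) at 100 ng/ml for 24 h in the same cytokines; whether the immature cells spent those hours in culture is not given in the sources used here. A sort by the surface markers CD86 and I-Ab followed in both, and neither its gates nor the number of animals is given. With 1 library a group there is no replicate error, no test was made, and every value below compares these 2 libraries. Ratios carry exact 95% counting intervals (Clopper-Pearson), which cover counting error only and treat reads as independent. Without molecular identifiers several reads can stem from 1 molecule, so the intervals can be too narrow even for counting error. In bulk RNA, fewer cells of a type and less RNA per cell cannot be told apart.

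The libraries held 7.56 M and 8.07 M reads counted to genes. The sort markers and DC genes were present, and of 9 DC genes 4 were at least 2-fold higher and 1 was lower in the mature library: H2-Ab1 stood at 1256 RPKM in the immature against 978 RPKM in the mature library, Cd86 at 26.1 and 152 RPKM, Cd74 at 5173 and 2910 RPKM, and Itgax at 407 and 148 RPKM. The level of H2-Aa was 1159 RPKM in immature and 1260.4 RPKM in mature cells. The others on the list were higher in the mature library: Ccr7 by 18.4-fold, Zbtb46 by 2.93-fold, Batf3 by 1.65-fold and Flt3, which was low at 0.722 and 3.28 RPKM, by 4.54-fold. Genes of other marrow cells differed between the libraries. For scale, 9.05% of all compared genes were at least 2-fold higher and 11.3% at least 2-fold lower in the mature library. Of 12 neutrophil and precursor genes, 10 were at least 2-fold lower in the mature library and 0 higher, and their summed level was 8309 RPKM against 2043 RPKM, led by S100a9, S100a8 and Ngp. Of 13 compared macrophage and monocyte genes, 7 were lower and 1 was higher, with sums over 14 genes of 841 and 651 RPKM, led by Cd14, Csf1r and Ccr2. Of 7 mast cell, basophil and eosinophil genes 6 were lower, with sums of 397 and 16.0 RPKM, led by Ear2, Prg2 and Epx. Osteoclast and giant cell genes summed to 420.4 and 500.2 RPKM over 7 genes, led by Atp6v0d2, Acp5 and Mmp9, with Oscar at 3 and 0 reads. Lymphocyte genes summed to 3.87 and 5.47 RPKM, led by Cd3d, Cd3g and Cd79b, with Ncr1 at 0 reads in the immature library, and erythroid genes, Hbb-b1, Klf1 and Alas2, to 1.51 and 0.341 RPKM. The part of these cells in the lysosomal values was not tested.

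Most of the lysosomal genes lay within 2-fold of each other in the 2 libraries, at 35 of 39. Lgmn was higher in the mature library, and Gusb, Man2b1 and Gm2a were lower. All 4 are hydrolases or their cofactors, so the 24 hydrolases and membrane proteins gave 1 higher and 3 lower, and the 15 V-ATPase genes gave 0 and 0. Over all 11547 compared genes, 9.05% were at least 2-fold higher, 11.3% at least 2-fold lower and so 20.4% apart, on the scale log2 of (mature RPKM + 1) over (immature RPKM + 1). With 1.5-fold as the bound, the hydrolases and membrane proteins gave 4 higher and 4 lower of 24 and the V-ATPase genes 0 higher and 2 lower of 15, against 21.4% higher, 21.7% lower and 43.1% apart of all genes. The median log2 fold was -0.14 for hydrolases and membrane proteins and -0.17 for the V-ATPase, against 0.026 for all compared genes. The standard deviation of log2 folds over genes was 0.71 for the former, 0.41 for the V-ATPase and 0.93 for all genes, which describes how widely members spread and is no error of a mean.

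**Figure D1:**
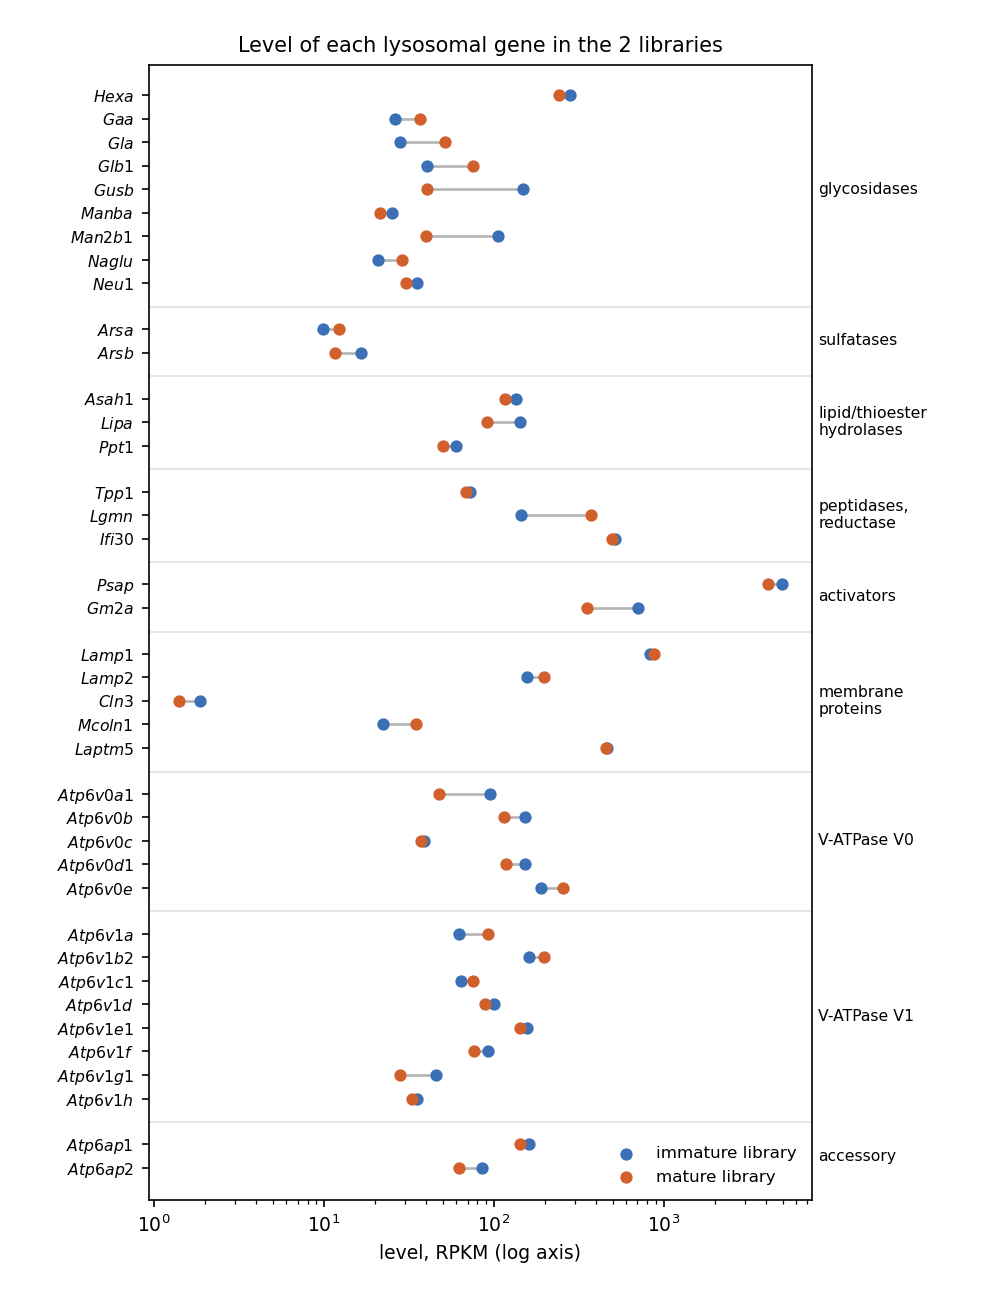
Level of each of the 39 genes in RPKM (log axis) in the immature (blue) and the mature library (orange), 1 point a library, grouped by role. Psap stands far above the others, at 4938 and 4106 RPKM, and Cln3 lowest, at 1.86 and 1.39 RPKM.

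In raw reads, the hydrolases and membrane proteins held 167660 reads in the immature against 154983 in the mature library, or 2.22% and 1.92% of all counted reads. The V-ATPase genes held 21613 and 21888 reads, or 0.286% and 0.271%. The mature share divided by the immature share was 0.949 for the pump (0.931 to 0.967) and 0.866 for the hydrolases and membrane proteins (0.860 to 0.872), so the pump was closer to level. Per length, the sums were 8924 and 7805 RPKM for hydrolases and membrane proteins and 1590 and 1513 RPKM for the pump. Psap alone gave 4938 and 4106 RPKM of the former. Without it the sum was 3986 and 3700 RPKM, a ratio of 0.928 against 0.952 for the pump. That ratio joins 2 unlike parts. Hydrolases, peptidases and activators without Psap summed to 2513 and 2138 RPKM (ratio 0.851), and membrane proteins to 1474 and 1561 RPKM (1.06).

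Psap encodes prosaposin, the precursor of the saposins that lift sphingolipids out of membranes for their hydrolases. It had 99944 immature and 88706 mature reads, or 1.32% and 1.10% of each library, and ranked 5 among all genes by RPKM in both. Its level was 1.20-fold lower in the mature library (1.19 to 1.21). Gm2a encodes the activator that presents the ganglioside GM2 to beta-hexosaminidase A. It stood at 706 RPKM in the immature against 352 RPKM in the mature library, from 10814 and 5750 reads, and was 2.01-fold lower (1.94 to 2.07). That places Gm2a just past the 2-fold bound, at a log2 fold of -1.003, while Atp6v0a1, at -0.97, falls just short of it. With RPKM rescaled so that both libraries had the same sum, over all genes or without the 50 most abundant, Gm2a lay within 2-fold.

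Among the 9 glycosidases, which remove sugars from glycoproteins, glycolipids, glycosaminoglycans and glycogen, 2 were at least 2-fold lower, 0 higher and 7 within 2-fold. Gusb, the beta-glucuronidase of glycosaminoglycan breakdown, stood at 148 and 40.3 RPKM on 2758 and 799 reads. It was 3.68-fold lower in the mature library (3.40 to 3.99), the member with the largest difference of the 39. Man2b1, the alpha-mannosidase that trims N-glycans, stood at 105 and 39.6 RPKM on 3448 and 1383 reads, 2.66-fold lower (2.50 to 2.83). Its partner on the beta linkage, Manba, was much closer to level, at 25.3 and 21.5 RPKM, 1.18-fold lower (1.06 to 1.31).

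Glycosidases higher in the mature library were led by Glb1 and Gla, both short of 2-fold on the log2 scale. Glb1, the beta-galactosidase that acts on GM1 ganglioside and keratan sulfate, stood at 40.6 and 75.3 RPKM, 1.85-fold higher (1.69 to 2.03). Gla, the alpha-galactosidase of globotriaosylceramide, stood at 28.0 and 51.7 RPKM, 1.85-fold higher (1.68 to 2.03). The glycogen hydrolase Gaa was at 26.3 and 36.5 RPKM, 1.39-fold higher (1.27 to 1.53), and the heparan sulfate glycosidase Naglu at 20.8 and 28.7 RPKM, 1.38-fold higher (1.22 to 1.58). Hexa, the alpha chain of beta-hexosaminidase, was the most abundant glycosidase, at 279 and 243 RPKM. The sialidase Neu1 stood at 35.0 and 30.3 RPKM and, like Hexa, was under 1.2-fold lower.

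Genes of the same breakdown route thus differed in direction. On the way from GM1 to ceramide, Glb1 was 1.85-fold higher, Gm2a 2.01-fold lower and Hexa 1.15-fold lower (1.10 to 1.20). The acid ceramidase Asah1, which acts on ceramide itself, was 1.16-fold lower (1.10 to 1.24), at 135 and 116 RPKM. The ratio of Gm2a to Hexa RPKM was 2.53 in the immature against 1.45 in the mature library, and that of Glb1 to Neu1 was 1.16 and 2.49. In heparan sulfate breakdown, a grouping made after the values were seen, Naglu was joined by Idua at 2.06-fold higher (1.79 to 2.38), Sgsh at 1.93-fold (1.42 to 2.66), Hgsnat at 1.46-fold and Ids at 1.21-fold. Gusb, which takes part in the same breakdown, was on the other side, as given above.

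The sulfatases were the least abundant soluble enzymes among the 39. Arsa, which removes sulfate from sulfatide, stood at 9.85 and 12.2 RPKM, 1.24-fold higher (1.06 to 1.47). Arsb, which acts on dermatan sulfate, stood at 16.5 and 11.6 RPKM, 1.41-fold lower (1.23 to 1.62). Of the enzymes that cleave lipids or fatty acid thioesters, all 3 were lower and none by 2-fold. Lipa, the acid lipase of cholesteryl esters and triglycerides, stood at 143 and 90.9 RPKM, 1.58-fold lower (1.49 to 1.66). Ppt1, the thioesterase that removes palmitate from proteins, stood at 60.2 and 50.1 RPKM, 1.20-fold lower (1.10 to 1.31).

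Lgmn was the member that stood highest in the mature over the immature library. It encodes legumain, the asparaginyl endopeptidase that opens antigens and activates cathepsins. Its level was 144 RPKM in the immature against 373 RPKM in the mature library, from 2039 and 5642 reads, and its rank among all genes went from 456 to 125. It was 2.59-fold higher (2.46 to 2.73). The RPKM ratio of Lgmn to Gusb was 0.969 in the immature library and 9.25 in the mature. These are the members with the highest and the lowest log2 fold, so a large shift of their ratio follows from the choice of pair. The other enzymes that act on proteins were level within counting error. Tpp1, a tripeptidyl peptidase, stood at 72.1 and 68.3 RPKM (ratio lower by 1.06-fold, 0.990 to 1.12). Ifi30, the thiol reductase GILT that opens disulfide bonds of antigens, was abundant in both, at 517 and 498 RPKM (1.04-fold lower, 0.994 to 1.09).

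**Figure D2:**
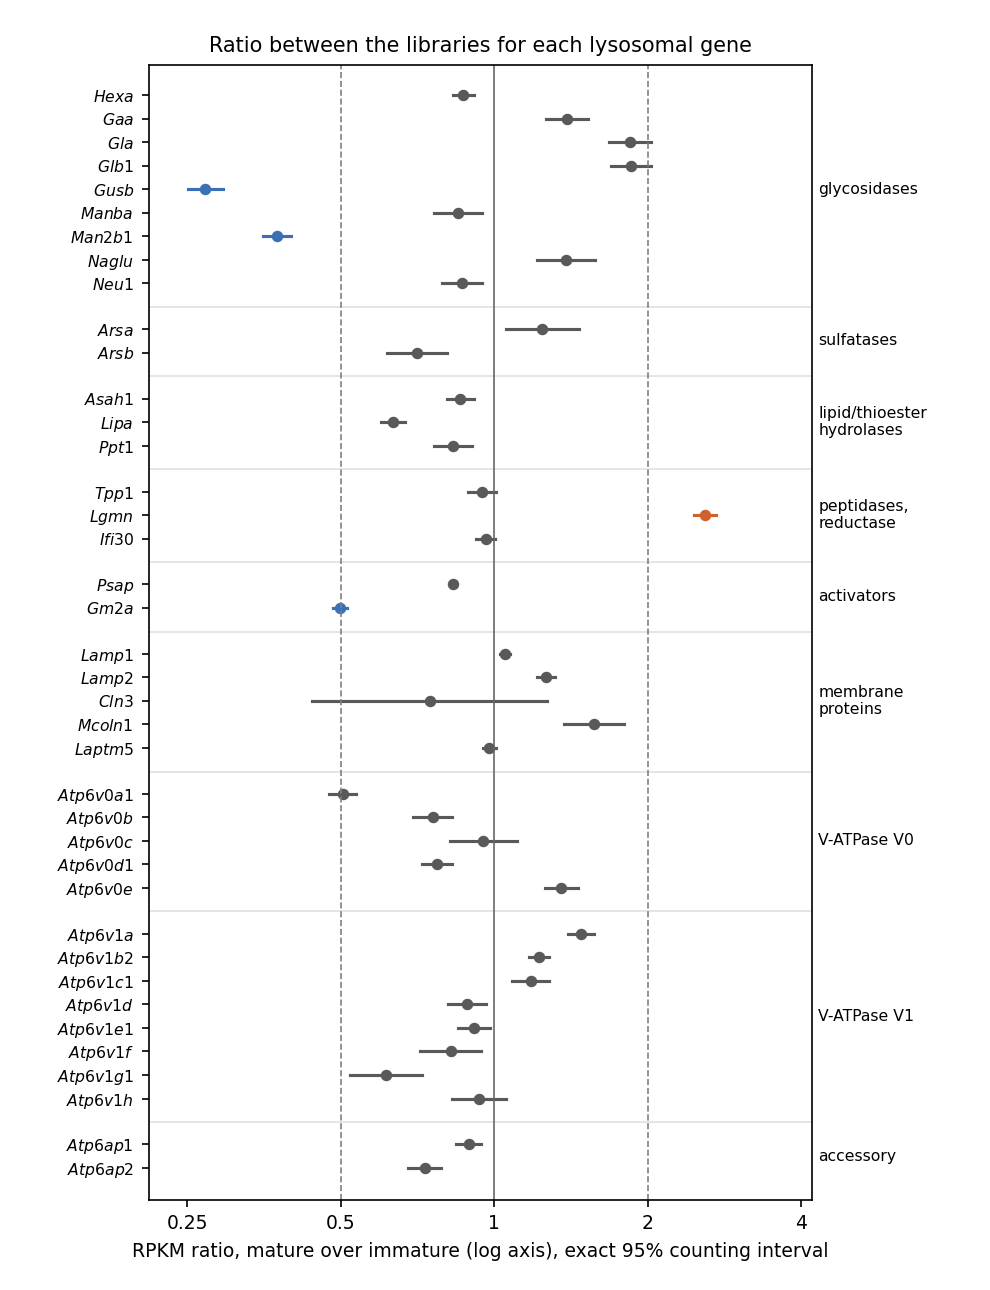
Ratio of mature to immature RPKM for each of the 39 genes (log axis) with its exact 95% counting interval. The dashed lines mark 2-fold, and genes at least 2-fold higher or lower are orange or blue: Lgmn lies beyond it on the right, Gusb and Man2b1 beyond it on the left, and Gm2a and Atp6v0a1 at the left line.

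The lysosomal membrane proteins were all within 2-fold, with a median log2 fold of 0.074. Lamp1 and Lamp2, the heavily glycosylated proteins that line the inner face of the membrane, differed 5.32-fold in level from each other in the immature library and 4.43-fold in the mature. Lamp1 stood at 829 and 873 RPKM, 1.05-fold higher in the mature library (1.03 to 1.08), and Lamp2 at 156 and 197 RPKM, 1.26-fold higher (1.22 to 1.32). Mcoln1, the calcium channel TRPML1, had the largest difference of the 5, at 22.2 and 34.9 RPKM, 1.57-fold higher (1.37 to 1.80). Laptm5, a membrane protein of blood cell lysosomes, stood at 465 and 455 RPKM, with an interval that spans 1. Cln3, the membrane protein lost in juvenile Batten disease, had 35 and 28 reads over 22.7% and 23.0% of its gene model, and its ratio (1.33-fold lower, 0.789 to 2.28) was not distinguishable from 1 at this depth.

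In the membrane sector of the pump, 4 of the 5 members were lower and Atp6v0e was higher. Atp6v0a1 encodes the a1 isoform of the subunit that forms the proton path. It stood at 94.4 RPKM on 2855 reads in the immature against 47.6 RPKM on 1538 reads in the mature library, 1.98-fold lower (1.86 to 2.11), the largest difference among the pump genes. Atp6v0b and Atp6v0c encode proteolipids of the rotating ring. Atp6v0b stood at 152 and 115 RPKM, 1.32-fold lower (1.21 to 1.44), and Atp6v0c at 38.8 and 37.0 RPKM, 1.05-fold lower (0.900 to 1.22). Reads of Atp6v0c covered only 18.9% and 21.5% of its gene model, and only uniquely placed reads were counted, so its level is uncertain. Atp6v0d1, which couples the ring to the central stalk, stood at 153 and 118 RPKM, 1.29-fold lower (1.21 to 1.38). The small membrane subunit gene Atp6v0e stood at 189 and 256 RPKM, 1.36-fold higher (1.26 to 1.46).

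Of the 8 members of the cytosolic sector, 3 were higher in the mature library, both genes of the catalytic head among them, and 5 were lower. Atp6v1a and Atp6v1b2 encode the A and B subunits that alternate in the head, where ATP is bound. Atp6v1a stood at 62.1 and 92.1 RPKM, 1.48-fold higher in the mature library (1.40 to 1.57), and Atp6v1b2 at 161 and 197 RPKM, 1.22-fold higher (1.17 to 1.28). Atp6v1c1, of the subunit that clamps V1 to V0, was the other member above 1, at 63.8 and 75.2 RPKM, 1.18-fold higher (1.09 to 1.28). The rotor genes Atp6v1d, at 100.3 and 88.8 RPKM, and Atp6v1f, at 92.2 and 75.9 RPKM, were 1.13-fold (1.04 to 1.23) and 1.22-fold lower (1.06 to 1.40). In the outer stalks, Atp6v1e1 stood at 157 and 143 RPKM, 1.09-fold lower (1.02 to 1.18). Its partner gene Atp6v1g1 stood at 45.8 and 28.1 RPKM on 384 and 252 reads, 1.63-fold lower (1.38 to 1.91), with 60.1% and 60.0% of its model covered. Atp6v1h, of the regulatory H subunit, stood at 35.2 and 32.8 RPKM with an interval that spans 1. The accessory genes Atp6ap1 and Atp6ap2, whose products help the pump assemble, were 1.12-fold (1.06 to 1.19) and 1.37-fold lower (1.27 to 1.48).

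Summed by sector, V0 genes stood at 627 and 575 RPKM and V1 genes at 717 and 733 RPKM. In raw reads, which weigh long genes more, they held 7354 and 6010 for V0 and 10079 and 12164 for V1; the longest V0 model, Atp6v0a1 at 4000 bases, was lower in the mature library and the longest V1 model, Atp6v1a at 3946 bases, higher. Gene length also tracked the difference between the libraries across all genes. The median log2 fold was -0.31 among the shortest decile of compared genes (up to 994 bases) and 0.24 among the longest decile (from 5742 bases). The V-ATPase genes are short, with a median model of 1617 bases against 2496 for the hydrolases and membrane proteins and 2654 for all compared genes. With a running median over length removed, the pump's median log2 fold was -0.029 in place of -0.17, and that of hydrolases and membrane proteins -0.080 in place of -0.14. Under that setting Atp6v0a1 passed 2-fold, at -1.08.

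Several pump subunits have isoforms encoded by other genes, and these set the isoform mix of each library per length. Subunit a is encoded by Atp6v0a1, Atp6v0a2 and Tcirg1, the a3 gene needed for acid secretion by osteoclasts. Tcirg1 was the most abundant in both libraries, at 166 and 137 RPKM, and Atp6v0a2 the least, at 26.7 and 19.6 RPKM. All 3 were lower in the mature library, Atp6v0a1 by the most, so that Atp6v0a1 was 32.9% of their sum in the immature against 23.4% in the mature library, and Tcirg1 57.8% and 67.0%. Subunit d came from Atp6v0d1 and Atp6v0d2, an isoform known from osteoclasts and myeloid cells. Atp6v0d2 stood at 156 and 165 RPKM, 1.05-fold higher (1.00 to 1.11), and made up 50.6% of the sum in the immature against 58.2% in the mature library. Other isoforms were scarce: Atp6v1g2 had 17 and 14 reads and Atp6v1c2 1 and 2 reads. The isoform genes Atp6v0a4, Atp6v0e2, Atp6v1b1, Atp6v1e2 and Atp6v1g3 were not analysed here.

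**Figure D3:**
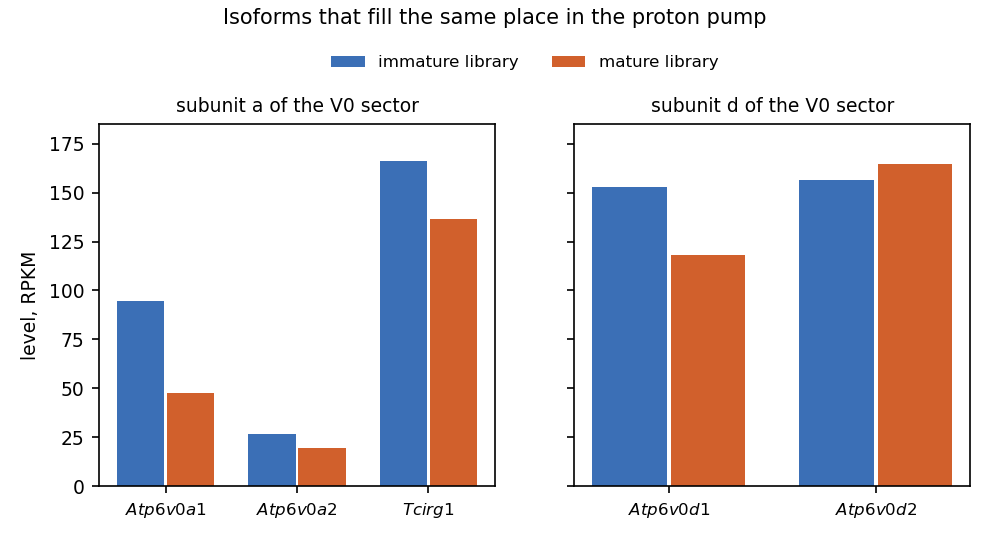
Level in RPKM (bars from 0) of the genes for subunits a and d of the V0 sector in the immature (blue) and the mature library (orange). Tcirg1 leads subunit a in both libraries, and Atp6v0d1 and Atp6v0d2 stand near each other in the immature library, at 153 and 156 RPKM, and apart in the mature, at 118 and 165 RPKM.

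Many lysosomal genes are known to carry an extended E-box in their promoters, the letters bound by TFEB, TFE3 and MITF. The RefSeq promoter windows (assembly GRCm38.p6, 250 bases before to 50 after each start) were searched on both strands for TCACGTG, which contains the shorter CACGTG and is contained in the palindrome TCACGTGA. Windows were held for 34 of the 39 genes, and not for Asah1, Atp6v1b2, Atp6v1c1, Atp6v1g1 and Atp6v1h. TCACGTG was found in 14 of the 34 (41.2%), against 4.29% of all 27025 genes with a window, and TCACGTGA in 7 (20.6%) against 1.12%. The 27025 include genes that were not compared here. Of compared genes with a window, 636 held TCACGTG and 8229 did not, and 206 held TCACGTGA and 8659 did not. Among 96 other genes of the lysosomal pathway with a window, the shares were 21.9% for TCACGTG and 12.5% for TCACGTGA. The 14 are Gaa, Gla, Glb1, Naglu, Arsa, Lgmn, Ifi30, Lamp1, Cln3, Mcoln1, Atp6v0b, Atp6v0d1, Atp6v0e and Atp6v1a. Stretches from 12 of these genes, both higher and lower in the mature library, follow, 5′ to 3′ on the gene's strand, with the matching letters in capitals. They are shown because the genes with and without these letters differ below, and Lamp1 because it holds 4 matches. Gla, Mcoln1, Cln3 and Atp6v0b each hold a further match before the start that is not printed. Stretches were taken from bases before the start only, which gave none for Atp6v0d1 and Atp6v0e. The stretch of Lgmn lies before the second of its listed starts.
Lgmn, chr12:102439121-102439157, minus strand: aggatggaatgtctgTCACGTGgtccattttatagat
Glb1, chr9:114401014-114401050, plus strand: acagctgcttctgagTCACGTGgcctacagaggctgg
Gla, chrX:134601215-134601244, minus strand: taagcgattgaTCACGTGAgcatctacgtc
Mcoln1, chr8:3500462-3500491, plus strand: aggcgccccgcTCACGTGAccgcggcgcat
Atp6v1a, chr16:44139369-44139406, minus strand: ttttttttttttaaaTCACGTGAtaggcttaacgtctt
Gaa, chr11:119267807-119267843, plus strand: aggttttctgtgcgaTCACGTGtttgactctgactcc
Naglu, chr11:101070009-101070037, plus strand: caaccttcaggTCACGTGgcccgaggtcg
Arsa, chr15:89477425-89477452, minus strand: tcaactcagtgTCACGTGttgtctgctc
Lamp1, chr8:13159084-13159160, plus strand: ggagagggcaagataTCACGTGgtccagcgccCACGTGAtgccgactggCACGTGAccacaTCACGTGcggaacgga
Ifi30, chr8:70766838-70766875, minus strand: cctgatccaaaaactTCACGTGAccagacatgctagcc
Cln3, chr7:126583340-126583369, minus strand: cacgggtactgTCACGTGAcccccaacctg
Atp6v0b, chr4:117887349-117887377, minus strand: gtgcgcgggggTCACGTGgggtcggcgca

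Genes of the 39 with these letters in the window and those without differed in direction. Of the 14 with TCACGTG, 10 had a log2 fold above 0, with a median of 0.44, and Lgmn, Glb1, Gla, Mcoln1 and Atp6v1a were the highest. Of the 20 without it, 1 was above 0, Lamp2, with a median of -0.24, and Gusb, Man2b1, Gm2a and Atp6v0a1 were the lowest. Over all compared genes, 51.6% were above 0. The difference lay mainly in the hydrolases and membrane proteins, at 8 of 10 with the letters and 1 of 13 without. Among the V-ATPase genes the counts were 2 of 4 (median 0.034) and 0 of 7 (median -0.17), and with the length trend removed 2 of 4 and 3 of 7. With RPKM rescaled to the same sum in both libraries the counts were 11 of 14 and 4 of 20, and with the length trend removed also 11 of 14 and 4 of 20. With the palindrome TCACGTGA in its place they were 4 of 7 and 7 of 27. The letters were chosen after the members' values were seen, and a match is neither a bound site nor a cause.

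The same counts were made outside the 39, and the difference between these sets of genes was not tested. Among 87 other genes of the pathway lists with a window and a comparable level, 8 of 21 with TCACGTG were above 0 (median -0.23) and 35 of 66 without it (median 0.050). Among all compared genes with a window, 325 of 636 with the letters were above 0 (median 0.018) and 4263 of 8229 without them (median 0.029). Genes with the letters outside the 39 included Plbd1, Cd164 and Lamtor4 among the lower and Gga2 among the higher.

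**Figure D4:**
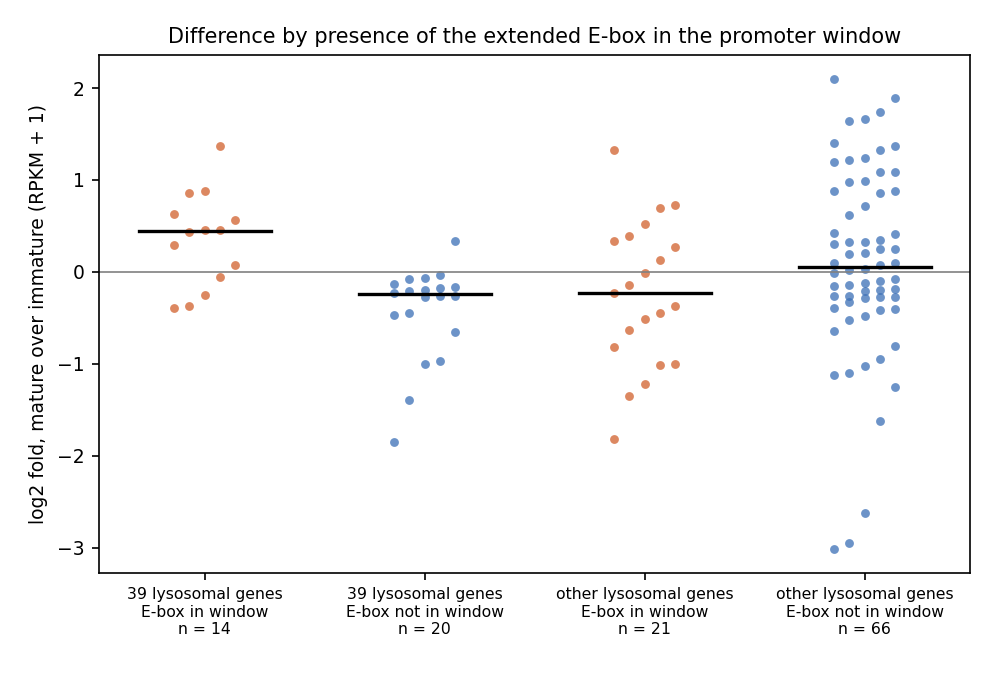
Log2 fold (mature over immature, RPKM + 1) of single genes with and without TCACGTG in the RefSeq promoter window, for the 39 lysosomal genes and for other genes of the pathway lists; black lines are medians. The medians of the 39 are 0.44 with and -0.24 without the letters, while those of the other genes are -0.23 and 0.050.

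Of the MITF/TFE family of factors, which bind such letters, none of the 4 genes was higher in the mature library. Genes of other factors that bind them were not looked at. RNA levels do not show how active the factors are as proteins, which was not measured. Tfeb stood at 12.6 and 5.68 RPKM on 224 and 108 reads, 2.21-fold lower (1.75 to 2.81), and Tfec at 54.6 and 17.0 RPKM, 3.21-fold lower (2.77 to 3.73). Tfe3 stood at 40.2 and 37.5 RPKM, with an interval that spans 1, and Mitf at 17.5 and 14.4 RPKM, 1.21-fold lower (1.08 to 1.36). In the list of 17 factors and nutrient sensors at the lysosome, 2 were higher (11.8%) and 4 lower (23.5%), against 9.05% and 11.3% of all genes. The median log2 fold of the list was -0.26. Flcn and Rptor, of mTORC1 control, were 2.48-fold (2.13 to 2.89) and 2.46-fold higher (2.19 to 2.76). The short Ragulator genes Lamtor4 and Lamtor2 were 2.38-fold (2.03 to 2.79) and 2.16-fold lower (1.88 to 2.48).

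The rest of the pathway held genes with larger differences than any of the 39. Of 40 other hydrolases and cofactors, 5 were at least 2-fold higher (12.5%) and 7 lower (17.5%), with a median log2 fold of 0.033. Over all compared genes the shares were 9.05% and 11.3%, and whether the share of any list differs from these was not tested. Pld4, an endolysosomal nuclease, was 8.71-fold lower (7.47 to 10.2), the lysozyme genes Lyz1 and Lyz2 7.80-fold (7.21 to 8.46) and 6.17-fold lower (6.05 to 6.29), and Plbd1 3.75-fold lower (3.17 to 4.45). The lysozyme genes are near-identical copies, and Lyz1 reads covered 53.7% and 49.0% of its model, so the division between them is uncertain. Their product is abundant in granulocytes and macrophages, whose markers are given above, and the part of those cells in the lysozyme values was not tested. In the other direction stood Hyal1, a hyaluronidase on 7 and 90 reads, 12.0-fold higher (5.61 to 30.8), Galc, the galactosylceramidase, 4.09-fold higher (3.50 to 4.80), the sterol carrier Npc2, 3.18-fold higher (3.06 to 3.30), and Acp5, an acid phosphatase, 3.16-fold higher (2.85 to 3.49).

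Of 31 compared genes for other lysosomal membrane proteins and transporters, 4 were higher (12.9%) and 2 lower (6.45%), against 9.05% and 11.3% of all genes. Their median log2 fold was 0.21. Laptm4b, on 16 and 98 reads, was 5.74-fold higher (3.36 to 10.4), Gpnmb 2.64-fold (2.60 to 2.68), the metal transporter Slc11a1 2.36-fold (2.14 to 2.61) and Scarb2, the receptor that carries glucocerebrosidase, 2.13-fold (2.00 to 2.27). The channel Tpcn1 and the sialomucin Cd164 were 2.57-fold (2.31 to 2.85) and 2.56-fold lower (2.44 to 2.67). Of 13 isoforms and assembly factors of the pump, 2 were higher (15.4%) and 0 lower on the log2 scale. Ncoa7, which binds the V-ATPase, was 3.78-fold higher (3.25 to 4.41). Rogdi, of the complex that rejoins V1 and V0, was 2.14-fold higher (1.97 to 2.34). The assembly factor Ccdc115 fell just short of the bound, at a log2 fold of -0.997, and was 2.03-fold lower by RPKM ratio (1.80 to 2.28). In the delivery of hydrolases, 2 of 12 genes were higher (16.7%) and 1 was lower (8.33%). The adaptors Gga3 and Gga2 were 2.76-fold (2.39 to 3.21) and 2.66-fold higher, and the sorting receptor Sort1 3.45-fold lower (3.16 to 3.76), while the mannose 6-phosphate receptor M6pr stood at 329 and 411 RPKM.

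**Figure D5:**
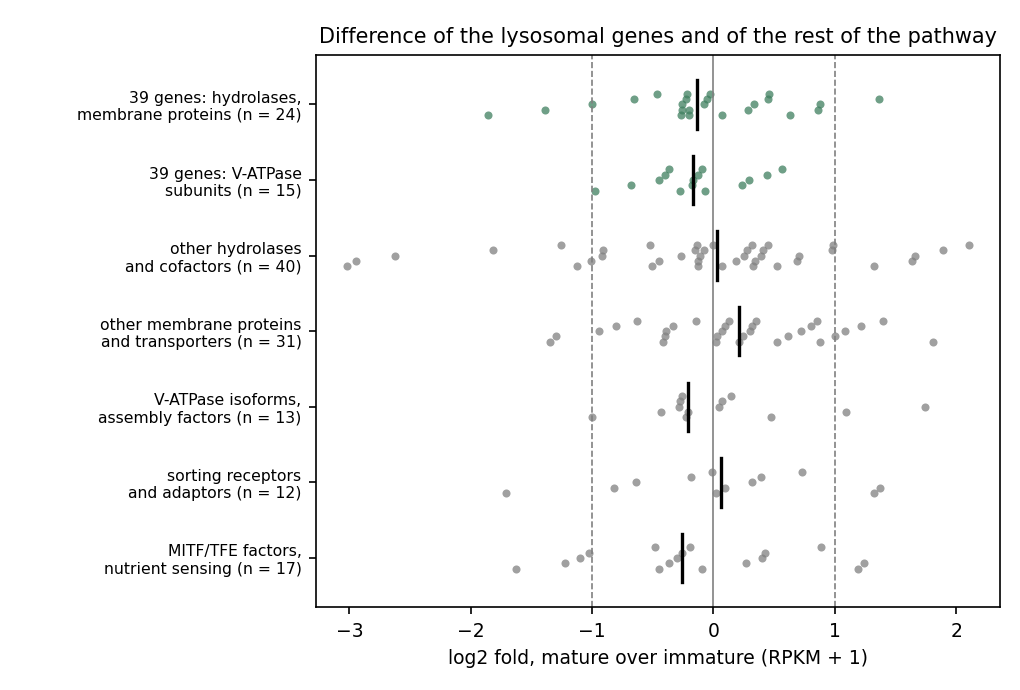
Log2 fold (mature over immature, RPKM + 1) of each compared gene among the hydrolases and membrane proteins and the V-ATPase subunits of the 39 (both green) and in the 5 lists of other pathway genes (grey); black lines are medians and dashed lines mark 2-fold. The V-ATPase subunits all lie between -0.97 and 0.56, while other hydrolases reach from -3.02 to 2.10.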

How the data were processed

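The deposited files hold, per the file headers, raw counts of uniquely placed reads per Entrez gene, gene model length, percent coverage of that length, and RPKM made by the authors from those counts; recomputing RPKM gave every deposited value within a relative deviation of 1.07e-07. Per the submitters' processing notes the build was mm8; the aligner, counter, strandedness and annotation were not given in the sources used here. Genes listed by only 1 of the files were counted at 0 reads in the other. Symbols came from the RefSeq gene table of GRCm38.p6, so no gene coordinates are given; promoter stretches carry that table's coordinates.

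Log2 folds used a pseudocount of 1 RPKM over genes that reached 1 RPKM in either library, with 2-fold as the bound. Intervals and medians were computed with Python 3.11.15, numpy 2.4.6, pandas 2.3.3 and scipy 1.17.1, after the steps were tested on simulated data. All 39 genes are named; of each list of other pathway genes, up to 4 higher and 4 lower beyond 2-fold were named by size, with all pump isoforms of at least 10 reads, the 4 MITF/TFE factors, the sort markers, and the 3 most abundant markers of each cell type list. The other heparan sulfate enzymes named, M6pr, Atp6v1c2, Ccdc115, the DC genes beyond the 3 most abundant and the marker genes at 0 reads were named after their values were seen. The members and lists were chosen with earlier results of these data known. Alternatives were other pseudocounts, filters, scalings, bounds, coverage and the length trend.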

Additional observations from a re-analysis of the deposited data

How the results depend on the processing

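No paired analysis was possible because each state has 1 library, and no library could be left out. The 1 higher and 3 lower hydrolases and membrane proteins became 1 and 2 under either rescaling, with Gm2a back within 2-fold. With 1.5-fold as the bound there were 4 higher, and with 4-fold 0 higher and 0 lower. The V-ATPase genes at least 2-fold lower, 0 as reported, numbered 2 with 1.5-fold as the bound and 1 with the gene length trend removed, and that setting moved their median log2 fold to -0.029; the rescalings gave -0.079 and -0.052. Over all compared genes the higher and lower numbered 469 and 686 with a pseudocount of 5 RPKM, 2474 and 2503 with 1.5-fold as the bound, and 197 and 316 with 4-fold, because these settings move the bound or shrink low genes. Some members turned sign. These were Atp6v0c, Ifi30, Laptm5 and Tpp1 under either rescaling, and Atp6v1h under rescaling without the 50 most abundant genes. With the length trend removed they were Atp6v0c, Atp6v1e1, Atp6v1f and Ifi30. Among them, Atp6v1e1 (1.02 to 1.18) and Atp6v1f (1.06 to 1.40) had counting intervals wholly on the lower side, so their direction depends on the processing beyond counting error. Rescaling moved the median of all genes by 0.076 or 0.0998 on the log2 scale. Members with log2 folds below 0 numbered 26 of 39 as reported and 21 under rescaling without the 50 most abundant genes. Depth limits Cln3, on 28 mature reads, most among the 39.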
